A study of Mus musculus with 25 samples.

Results

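The genes described here are 8 mouse genes around itaconate, out of 54752 genes counted in white adipose tissue. They were listed by name, with earlier results of these data known, and comprise the enzyme that makes itaconate (*Acod1*), the enzymes that break it down (*Sugct*, *Auh* and *Clybl*), a mitochondrial carrier that can move it (*Slc25a10*), a cell surface receptor that it can bind (*Oxgr1*), and a pair of transcriptional regulators through which it acts in macrophages (*Atf3* and *Nfkbiz*). RNA was sequenced from epididymal (eWAT) and inguinal (iWAT) white fat of male C57BL/6 mice as 25 libraries in 6 groups. In eWAT these were 4 wild type mice on a normal diet (ND), 5 wild type mice on a high-fat diet (HFD) and 5 *Acod1*-/- mice on HFD. In iWAT they were 3, 5 and 3 mice of the same kinds. No ND-fed *Acod1*-/- mice were analysed here, so genotypes were compared on HFD alone.

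Feeding with the HFD, in which fat supplied 60% of calories, began at 5 weeks of age and lasted 16 weeks, except that the labels give 17 and 18 weeks for replicates 2 and 3 of the iWAT *Acod1*-/- group. The mutant line carries its deletion in every tissue, and its control mice were littermates. The labels do not say which eWAT and iWAT libraries came from the same mouse. Between 31.41 and 52.34 M (mega) reads were counted on genes per library. The headers of the files begin with a number. A cut-off set here on that number put 14 libraries in series 1 and 11 in series 2. The name sequencing series is used here for this split, and whether it marks a batch is not given in the sources used here. Every ND-fed library was in series 2, so that diet and series nearly coincided. Marker genes showed other tissue in some libraries. B cell markers summed to between 522.6 and 800.7 CPM (normalized counts per M reads) in the 3 ND-fed iWAT libraries against at most 82.6 in any other library, epididymis markers reached 7732 CPM in ND-fed eWAT library 2, skeletal muscle markers reached 6238 CPM in ND-fed iWAT library 1, and skin and mammary epithelial markers reached 530.8 CPM in *Acod1*-/- iWAT library 2. Epididymis markers also reached 1054 CPM in the HFD-fed *Acod1*-/- eWAT group, against at most 114.3 CPM in HFD-fed wild type eWAT. All 7 adipocyte markers were counted in every group.

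Itaconate is made in the mitochondrial matrix when ACOD1 removes a carboxyl group from cis-aconitate, an intermediate of the tricarboxylic acid cycle, and it is best known from macrophages activated through Toll-like receptors and interferon. To be degraded it is joined to coenzyme A, either by succinyl-CoA ligase or by SUGCT, which otherwise passes coenzyme A from succinyl-CoA to glutarate. The itaconyl-CoA is hydrated by AUH, an enzyme of leucine breakdown, and the citramalyl-CoA that forms is split by CLYBL into acetyl-CoA and pyruvate. SLC25A10 exchanges dicarboxylates across the inner mitochondrial membrane, and OXGR1 is a receptor for 2-oxoglutarate. ATF3 is a stress-induced repressor that limits production of IκBζ, the product of *Nfkbiz*, which in turn is needed for a set of secondary inflammatory genes.

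All 8 genes were placed in GRCm38 by the GENCODE annotation. *Acod1* (ENSMUSG00000022126) lies at chr14:103046977-103056573 on the forward strand, with 1 annotated transcript. On the same chromosome, *Oxgr1* (ENSMUSG00000044819, chr14:120019585-120042435, reverse strand) begins 17.0 Mb and *Clybl* (ENSMUSG00000025545, chr14:122181704-122402234, forward strand) 19.1 Mb beyond the end of *Acod1*. *Sugct* (ENSMUSG00000055137, chr13:16857472-17695553) and *Auh* (ENSMUSG00000021460, chr13:52835119-52929681) are both on the reverse strand. *Slc25a10* (ENSMUSG00000025792) is at chr11:120491840-120499187 on the forward strand, *Atf3* (ENSMUSG00000026628) at chr1:191170296-191218039 and *Nfkbiz* (ENSMUSG00000035356) at chr16:55811375-55838899, both on the reverse strand. *Sugct* overlaps *Mplkip*, which lies on the other strand and had a median of 682 counts per library against 291 for *Sugct*. This overlap is between whole gene spans, introns included. The use of strand in counting is not given in the sources used here, so whether reads of one gene entered the count of the other is not known. The other genes that overlap a member had at most 45 counts in any library, and *Acod1*, *Oxgr1*, *Auh* and *Nfkbiz* overlap no annotated gene.

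The promoters of the gene that makes itaconate and of the member that moved furthest are shown, from 250 bases before to 50 bases after the RefSeq start in GRCm38.p6. RefSeq promoters matched 7 of the 8 members. Capitals in *Acod1* (chr14:103046762-103047061, forward strand) mark a TATA box, and capitals in *Atf3* (chr1:191183284-191183583, reverse strand) mark a C/EBP-ATF composite site followed by a single ATF motif.

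Acod1 promoter: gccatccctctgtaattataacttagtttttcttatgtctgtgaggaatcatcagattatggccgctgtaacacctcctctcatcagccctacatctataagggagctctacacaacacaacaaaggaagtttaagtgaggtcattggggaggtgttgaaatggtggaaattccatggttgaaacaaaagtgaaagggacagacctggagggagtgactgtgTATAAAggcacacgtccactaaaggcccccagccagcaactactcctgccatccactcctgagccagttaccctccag

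Atf3 promoter: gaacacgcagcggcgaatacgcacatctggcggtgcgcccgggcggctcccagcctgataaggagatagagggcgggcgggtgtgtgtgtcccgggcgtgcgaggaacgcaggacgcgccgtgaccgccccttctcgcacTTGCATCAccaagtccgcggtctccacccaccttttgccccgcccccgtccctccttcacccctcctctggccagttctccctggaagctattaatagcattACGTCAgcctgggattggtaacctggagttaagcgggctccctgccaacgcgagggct

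The search covered both strands of 7 motifs. The TATA box of *Acod1* (TATAAA), 28 bases before its start, is held by 13.6% of the 32851 promoters of the same length. In *Atf3*, the composite site (TGATGCAA, found on the other strand) begins 110 bases before the start and is held by 0.895% of promoters. The single ATF motif (TGACGT, found on the other strand) begins 8 bases before the start and is held by 7.51%. None of the 7 members held the full ATF site (TGACGTCA, 1.79% of promoters), the AP-1 site (TGANTCA, 7.81%), the E-box (CACGTG, 7.15%) or the antioxidant response element (TGACNNNGC, 12.4%), and *Sugct*, *Auh*, *Clybl*, *Slc25a10* and *Oxgr1* held no motif of the 7. The single motif is one side of the full site. The *Atf3* window is that of the RefSeq start, and the annotated gene reaches further upstream.

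*Acod1* and *Oxgr1* were barely counted in either depot. *Acod1*, a gene of activated myeloid cells, had 48 reads in all 25 libraries together, and 12 libraries held any. In eWAT its counts were 0, 0, 0 and 2 in the ND group, 9, 0, 2, 3 and 0 in the wild type HFD group and 0, 2, 0, 2 and 0 in the *Acod1*-/- HFD group. In iWAT they were 7, 0 and 5, then 2, 0, 0, 3 and 9, then 0, 2 and 0 in the same order of groups. Only 4 libraries, all from wild type mice, passed 3 reads, the floor that a count of 0 allows for counting error alone. The groups overlapped in every comparison. The difference in mean level was 0.0576 CPM by diet and -0.0413 CPM by genotype in eWAT, and -0.0319 and -0.0398 CPM in iWAT. None of the 4 passed a two-sided exact permutation test (p = 0.238, 0.484, 0.643 and 0.571, each 0.804 after adjustment over the 5 tests of this family, *Oxgr1* included). The smallest p possible was 0.00794 by genotype in eWAT, and it was larger in the other comparisons, which have fewer libraries. Reads were also counted in 3 *Acod1*-/- libraries, at 2 each, so *Acod1* does not check the genotype of a library.

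*Oxgr1* was counted in 1 library alone, at 5 reads in HFD-fed *Acod1*-/- eWAT library 4. It was at 0 in the other 24, which allows up to 3 reads in each. Its difference by genotype in eWAT was 0.0268 CPM. With reads in 1 library alone, the two-sided exact permutation test gives p = 1 whichever group holds that library, so it could decide nothing. A difference in either gene was not detectable at this depth, and they were too low for the test across genes, which required a mean of 1 CPM.

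**Figure D1:**
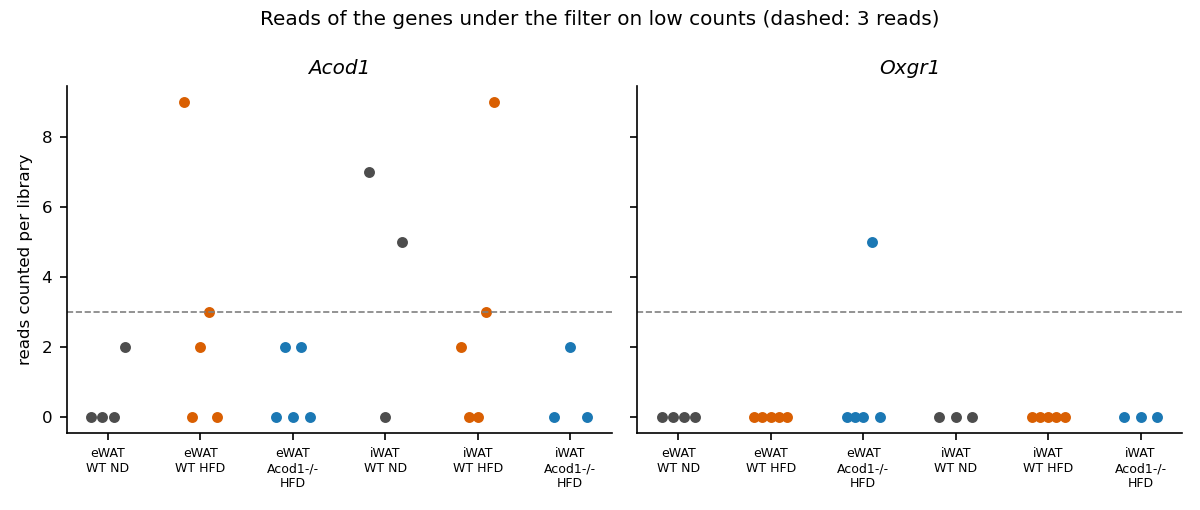
Reads counted for *Acod1* (left) and *Oxgr1* (right) in each library, by group, with 1 point per library and a dashed line at 3 reads. The points of *Acod1* reach 9 reads in 1 library each of the HFD-fed wild type eWAT and iWAT groups, and the only point of *Oxgr1* above 0 is at 5 reads.

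The other 6 members were well counted and were tested in both depots. Per length of transcript, as FPKM (fragments per kilobase of transcript and M reads), the carrier and the last enzyme of breakdown stood far above the rest. Median levels over the 25 libraries were 88.8 FPKM for *Slc25a10* and 65.0 FPKM for *Clybl*, and their ranges overlapped (37.97 to 131.4 and 37.6 to 89.5 FPKM). *Auh* followed at a median of 7.86 FPKM, with a range of 5.73 to 10.5 FPKM that overlapped neither. This order depends on the deposited gene lengths, 9580 bases for *Auh* and 1444 bases for *Clybl*. Without scaling by length or TMM, the mean over libraries was 77.0 counts per M reads for *Auh* and 96.5 for *Clybl*. *Atf3*, *Nfkbiz* and *Sugct* had medians of 3.56, 3.32 and 2.07 FPKM, with overlapping ranges. *Atf3* spanned from 0.483 to 104.4 FPKM, above the whole range of *Auh* in all 5 HFD-fed wild type eWAT libraries. It was also above that range in *Acod1*-/- eWAT library 5 (15.5 FPKM) and HFD-fed wild type iWAT library 1 (12.3 FPKM). *Sugct* stayed between 1.31 and 4.34 FPKM. *Acod1* did not exceed 0.088 FPKM in any library.

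**Figure D2:**
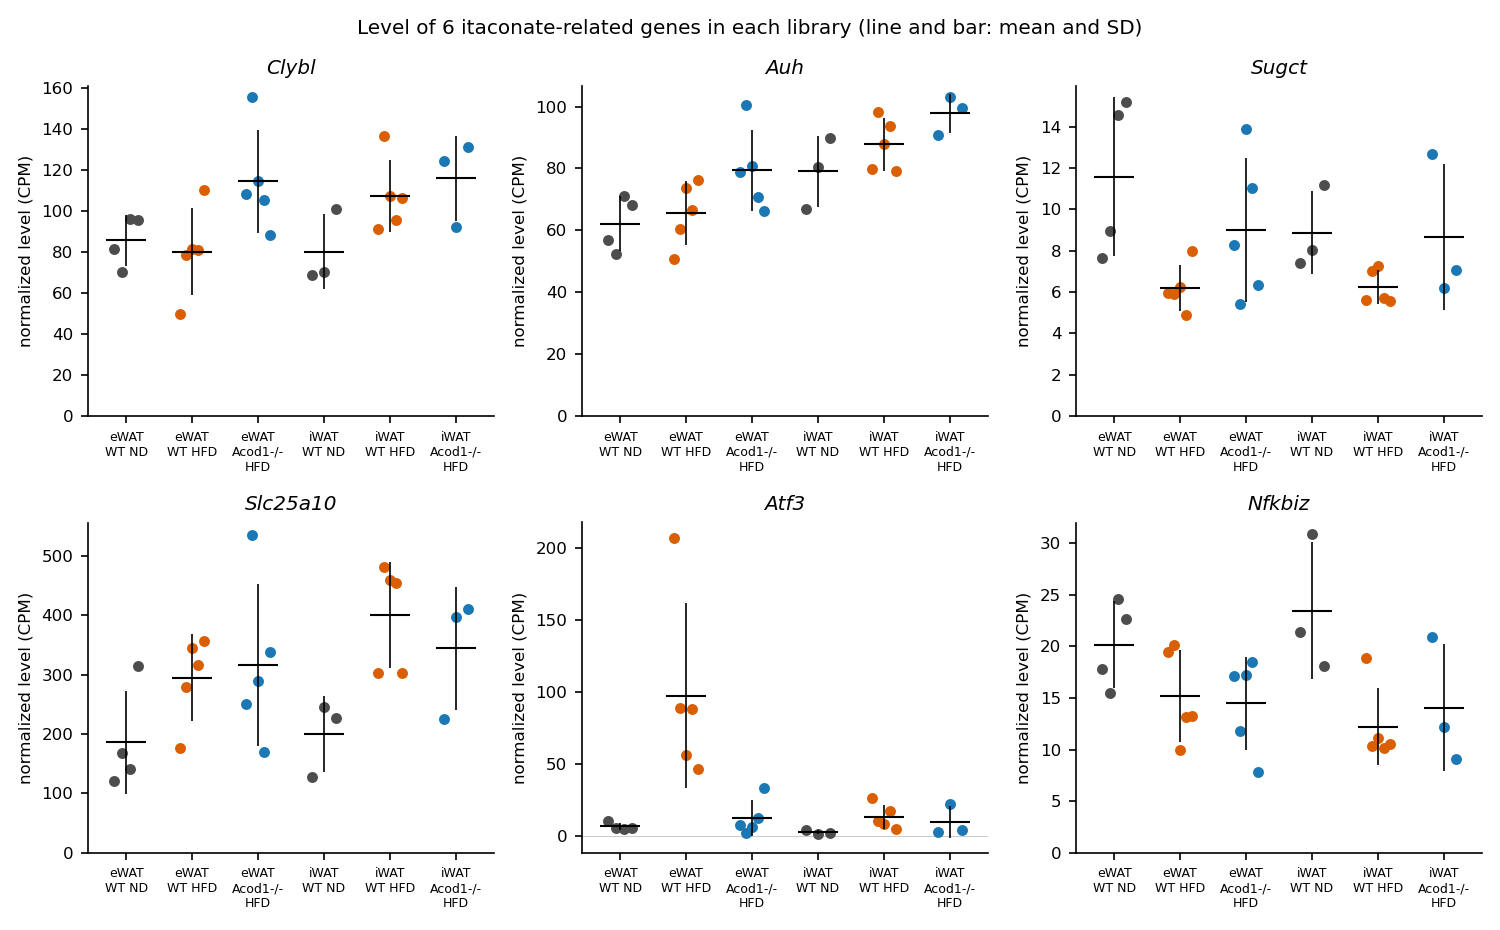
Normalized level (CPM, linear axis) of 6 members in each library, by group, with 1 point per library, a line at the mean and a bar of 1 SD. *Atf3* in HFD-fed wild type eWAT lies between 46.5 and 207.3 CPM, above every other group. In *Slc25a10*, every HFD-fed wild type iWAT library lies above every ND-fed one.

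HFD in wild type mice was compared with ND to ask which members respond to the diet. In eWAT, *Atf3* rose and *Sugct* fell, and *Clybl*, *Auh*, *Slc25a10* and *Nfkbiz* did not pass the test. Thus 1 of 6 members was higher, against 24.8% of the 14936 genes tested, and 1 of 6 was lower, against 26.9% of genes, at an adjusted p under 0.1. The median log2 fold change of the 6 members was -0.01 and that of all genes tested was -0.04. Groups were apart, with every library of one beyond every library of the other, in 1 of 6 members and in 35.2% of genes.

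*Atf3* was at 9.98, 5.29, 4.85 and 5.37 CPM in the 4 ND-fed eWAT libraries and at 207.3, 88.8, 56.2, 88.2 and 46.5 CPM in the 5 HFD-fed wild type ones. Every HFD-fed library was above every ND-fed one. The log2 fold change was 3.93 (SE 0.72, 15.3-fold, adjusted p = 0.00129, edgeR's quasi-likelihood test). Without library 1 of the HFD-fed group, the highest, the log2 fold change was 3.46 (adjusted p = 0.00227).

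*Sugct*, the coenzyme A transferase for glutarate and itaconate, was at 7.63, 8.93, 14.6 and 15.2 CPM on ND and at 5.94, 5.93, 6.23, 4.90 and 7.96 CPM on HFD. The groups overlapped in 1 pair of libraries, since HFD-fed library 5 was above ND-fed library 1. *Sugct* fell, with a log2 fold change of -0.90 (SE 0.29, adjusted p = 0.0229). With the sequencing series as a term the log2 fold change was -0.91 but the adjusted p was 0.123. *Mplkip*, which shares the locus, had a log2 fold change of -0.07 (adjusted p = 0.732).

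The members that did not pass in eWAT had narrow or wide intervals by gene. *Auh* had a log2 fold change of 0.08 with a 95% interval of -0.24 to 0.40, and *Clybl* of -0.10 with an interval of -0.53 to 0.33. *Slc25a10* was at 120.7, 167.7, 140.6 and 313.8 CPM on ND and at 175.7, 280.0, 344.8, 316.8 and 356.9 CPM on HFD, and ND-fed library 4 alone lay within the HFD range. Its log2 fold change was 0.67 (SE 0.34, adjusted p = 0.121). It passed without ND-fed library 4 (1.04, adjusted p = 0.0267) or HFD-fed library 1 (0.80, adjusted p = 0.0734), without *Acod1*-/- library 2 or 4 (0.67, adjusted p = 0.0811 and 0.0954), and in DESeq2 (0.68, adjusted p = 0.0730). *Nfkbiz* had a log2 fold change of -0.41 with an interval of -0.97 to 0.16, and of -0.89 (adjusted p = 0.0687) with the sequencing series as a term.

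Enzymes that stand next to these members in the mitochondrion fell on HFD in eWAT. Over all genes tested there, 24.8% rose and 26.9% fell. Of 8 genes of leucine catabolism around *Auh*, 6 fell and none rose, with a median log2 fold change of -0.72. *Ivd* (isovaleryl-CoA dehydrogenase) fell from 308.3 ± 56.0 (SD, n = 4) to 113.5 ± 28.1 CPM (SD, n = 5), with an adjusted p of 0.000614. *Mccc1*, a subunit of the carboxylase one step before AUH, had a log2 fold change of -1.09 (adjusted p = 0.00183) and *Dbt*, of the branched-chain ketoacid dehydrogenase, of -0.995 (adjusted p = 0.00328). *Auh* itself, which is not counted in the list, was not called (log2 fold change 0.08). Of 7 adipocyte markers 1 rose and 2 fell in this comparison, *Plin1* (-0.66) and *Lipe* (-0.63), and all 5 endothelial markers fell (median -0.69), with their sum between 587.9 and 898.9 CPM on ND and between 286.9 and 515.8 CPM on HFD. Of 5 tested mesothelial markers 3 fell, and of 5 tested skin and mammary epithelial markers 4 fell. The part of these cell types in the changes of the enzymes was not tested. Without ND-fed library 2, which was the highest in epididymis markers, a fit chosen after seeing the data, 6 of the 8 leucine genes fell (median -0.80).

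Of the 4 tested genes of lysine and glutarate catabolism around *Sugct*, 3 fell, where 26.9% of all genes tested fell. *Dhtkd1*, which makes glutaryl-CoA, had a log2 fold change of -1.75 (adjusted p = 0.000612), *Aldh7a1* of -0.86 and *Gcdh* of -0.34, and all 3 had groups apart. Of 6 genes of propionate and cobalamin metabolism, where itaconyl-CoA is known to inactivate the cobalamin of methylmalonyl-CoA mutase, 3 fell, led by the mutase *Mmut* itself (log2 fold change -0.86, adjusted p = 0.00051). *Pcca* and *Pccb* followed at -0.72 and -0.63. In citrate supply and coenzyme A ligation, 2 of 6 fell, among them *Suclg2* (-0.75), and 4 were not called.

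Regulators upstream of *Acod1* and around *Nfkbiz* rose in eWAT, where 24.8% of all genes tested rose and 26.9% fell. Of 6 tested signals that induce *Acod1*, 5 rose on HFD, with *Tlr2* at a log2 fold change of 1.80 (adjusted p = 0.00347), *Myd88* at 0.39 and *Ifnar1* at 0.47. Without ND-fed library 2, 3 of the 6 rose. *Tnf* and *Il1b* were under the filter in eWAT, and *Ifnb1* had no count in any library. Of 10 NF-kB subunits and other IκB proteins, 7 rose and 1 fell, led by *Nfkbie* (log2 fold change 1.32, adjusted p = 0.000894), *Nfkbib* (0.73) and *Nfkbid* (1.49), with a median of 0.72. *Nfkbiz* was not among the list and had the opposite sign, at -0.41. Of the 6 genes that depend on IκBζ, only *Lcn2* was tested, with a log2 fold change of -0.69 (adjusted p = 0.463), while *Il6*, *Il12b*, *Csf2*, *Csf3* and *Ccl20* were under the filter.

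The stress lists around *Atf3* were mixed in eWAT. For all lists here, the shares over all genes tested were 24.8% higher and 26.9% lower. Of 18 immediate early genes, 6 rose and 4 fell on HFD, with *Junb* at a log2 fold change of 1.32 (adjusted p = 0.00123) and *Egr1* at 1.10 (adjusted p = 0.00123) against *Klf4* at -1.24 (adjusted p = 0.00182). Of 11 genes of ATF4 and the integrated stress response, 2 rose and 3 fell. *Ddit3*, whose product CHOP acts with ATF4, rose (log2 fold change 1.61, adjusted p = 0.000223), while *Asns* (-1.27) and *Sesn2* (-0.89), both targets of ATF4, fell. None of these named changes was as large as that of *Atf3*. Of 13 genes whose proteins itaconate modifies or inhibits, 3 rose and 1 fell. The latter was *Sdha*, the catalytic subunit of succinate dehydrogenase (-0.82, adjusted p = 0.00088), and the former were *Tfeb* (1.12), *Sting1* (0.86) and *Jak1*. Of 9 NRF2 target genes, 1 rose, *Hmox1* (2.13), and 3 fell, *Gclc* (-0.62), *Nqo1* (-1.43) and *Slc7a11* (-2.42). The falls of *Nqo1* and *Slc7a11* rested on ND-fed library 2, the highest in epididymis markers, which was at 34.7 CPM of *Nqo1* against 6.37 to 6.83 CPM in the other ND-fed libraries. Without it *Nqo1* was at -0.38 (adjusted p = 0.406), *Slc7a11* was under the filter and *Gclc* still fell (-0.52). Of 6 receptors for metabolites 2 fell, *Hcar1* (-1.35) and *Ffar4* (-1.004), and of 3 other carriers *Slc25a11* rose (0.34, adjusted p = 0.0408). Without ND-fed library 2 none of the 3 carriers was called, 2 NRF2 target genes rose and 1 fell, and of the 11 stress response genes 1 rose and 4 fell.

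Macrophage markers moved with *Atf3*. All 8 rose on HFD in eWAT, with a median log2 fold change of 2.13, from *Mrc1* at 1.52 to *Trem2* at 4.87. Their summed level was between 392.6 and 738.6 CPM on ND and between 1135 and 3778 CPM on HFD. *Atf3* per 1000 CPM of these markers was 13.5, 13.5, 9.88 and 13.5 CPM on ND and 54.9, 34.1, 39.2, 29.1 and 40.9 CPM on HFD. Of 6 neutrophil markers 2 were tested and rose, *S100a8* (4.05) and *Csf3r* (1.59), while *Ly6g* had at most 3 reads in any library. *Atf3* was higher in every HFD-fed library also relative to the marker sum. That ratio depends on the markers summed, since *Trem2* (4.87) rose more than *Atf3* (3.93). The part of macrophage number in the rise of *Atf3* was not tested. In bulk tissue, more cells of a type and more RNA per cell cannot be told apart. Over the 25 libraries the genes most like *Atf3* in log2 CPM were *Trem2* (Pearson's r = 0.95), *Gpnmb* (0.95) and *C3ar1* (0.94). After the mean of each group was subtracted they were *Spp1* (0.89), *Dcstamp* (0.88) and *5031439G07Rik* (0.87). These correlations describe libraries that share groups and depth, and carry no test.

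**Figure D3:**
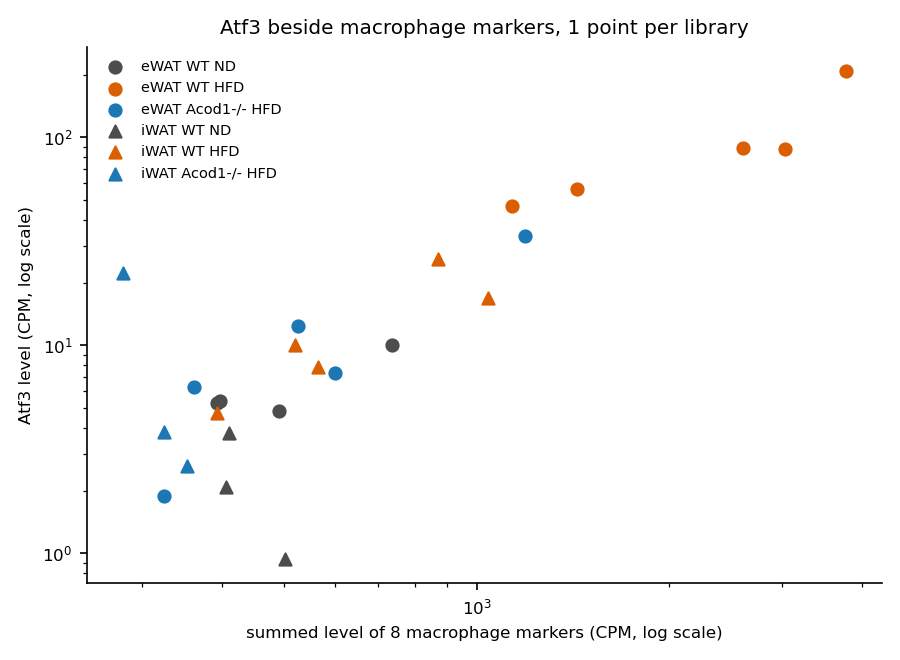
*Atf3* level against the summed level of 8 macrophage markers (both in CPM on log axes), with 1 point per library, circles for eWAT and triangles for iWAT. The 5 HFD-fed wild type eWAT libraries lie at the upper right, and *Acod1*-/- iWAT library 2 stands apart at 22.2 CPM of *Atf3* with the lowest marker sum, 280 CPM.

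*Acod1*-/- and wild type mice on HFD were compared to ask what the members do where itaconate cannot be made by ACOD1. In eWAT, *Atf3* fell and *Clybl* rose. That is 1 of 6 members higher, against 9.13% of genes, and 1 of 6 lower, against 10.8% of genes. Groups were apart in 1 of 6 members and in 7.14% of genes. The median log2 fold change was 0.19 over the members and 0.04 over all genes. This comparison shares its HFD-fed wild type libraries with the diet comparison, so opposite signs in the pair are not independent.

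*Atf3* was at 7.38, 1.88, 6.31, 12.4 and 33.3 CPM in the 5 *Acod1*-/- eWAT libraries, against 207.3, 88.8, 56.2, 88.2 and 46.5 CPM in wild type mice. Every *Acod1*-/- library was below every wild type one, and library 5 was the nearest to them. *Atf3* fell, with a log2 fold change of -2.98 (SE 0.63, 7.91-fold lower, adjusted p = 0.0136). It was -3.96 (adjusted p = 0.00263) among the HFD-fed libraries of sequencing series 1 alone, which leave out library 5 of each group. Levels in *Acod1*-/- mice overlapped those of ND-fed wild type mice, between 4.85 and 9.98 CPM.

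*Clybl*, which splits citramalyl-CoA, was at 108.4, 155.9, 114.8, 105.6 and 88.5 CPM in *Acod1*-/- mice and at 50.02, 78.6, 81.5, 81.0 and 110.3 CPM in wild type mice. Wild type library 5 lay within the *Acod1*-/- range and the other 4 below it. The log2 fold change was 0.51 (SE 0.19, 1.43-fold, adjusted p = 0.0934). This call lay near the threshold. It was lost in 11 of the 14 fits that each left out 1 eWAT library, all but those without ND-fed library 2, wild type library 5 or *Acod1*-/- library 5, and over the 14 the log2 fold change ranged from 0.38 to 0.65 and the adjusted p from 0.036 to 0.199. A term for the series also ended the call, with a log2 fold change of 0.53, but within series 1 the log2 fold change was 0.72 (adjusted p = 0.0288).

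The other 4 members did not pass in eWAT by genotype. *Sugct* was at 8.26, 5.42, 13.9, 11.04 and 6.32 CPM in *Acod1*-/- mice, so libraries 2 and 5 were within the wild type range and the other 3 above it. Its log2 fold change was 0.54 with a 95% interval of -0.05 to 1.12 (adjusted p = 0.213). *Auh* had 0.28 with an interval of -0.03 to 0.58, *Slc25a10* 0.10 with an interval of -0.57 to 0.77, and *Nfkbiz* -0.07 with an interval of -0.61 to 0.47. The intervals of *Sugct*, *Slc25a10* and *Nfkbiz* leave room for a change of over 1.5-fold.

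Neighbouring enzymes rose in *Acod1*-/- eWAT, where 9.13% of all genes tested rose and 10.8% fell. Of 8 genes of leucine catabolism 7 rose and none fell, with a median log2 fold change of 0.71. *Ivd* was at 239.5 ± 65.1 CPM (SD, n = 5) against 113.5 ± 28.1 CPM (SD, n = 5) in wild type mice (adjusted p = 0.0121). *Dbt* had a log2 fold change of 0.77 and *Mccc2* of 0.67. Of 4 genes around *Sugct* 3 rose, *Gcdh* (0.60), *Dhtkd1* (1.21) and *Aldh7a1* (0.36). Of 6 propionate genes 4 rose, including *Mmut* (0.63, adjusted p = 0.0115), *Pcca* (0.73) and *Pccb* (0.75). Of 6 genes of citrate supply and coenzyme A ligation 2 rose, among them *Suclg2* (0.50). Of 6 receptors for metabolites 1 rose, *Ffar4* (1.25, adjusted p = 0.0201), a receptor for long-chain fatty acids, and of 3 other carriers of itaconate or dicarboxylates none was called.

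Some inflammatory and immediate early regulators fell, beside 10.8% lower and 9.13% higher over all genes tested. Of 10 NF-kB subunits and IκB proteins 5 fell, led by *Bcl3* (log2 fold change -1.36, adjusted p = 0.0163), *Nfkbie* (-0.91) and *Nfkbid* (-1.51), and of 6 inducing signals 2 fell, *Myd88* (-0.44) and *Tlr2* (-1.48). Of 18 immediate early genes 5 fell and none rose, led by *Junb* (-1.18, adjusted p = 0.0110), *Egr1* (-0.89) and *Fos* (-2.06). Of 11 stress response genes *Asns* (0.96) and *Phgdh* (0.81) rose and *Trib3* (-0.62) fell. Of 13 targets of itaconate 3 fell, *Tfeb* (-0.67), *Sting1* (-0.69) and *Gsdmd*, and 1 rose, *Sdha* (0.46, adjusted p = 0.0405). Of 9 NRF2 target genes *Hmox1* (-1.49) and *Txnrd1* fell and *Gclc* (0.41) rose.

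Markers of other cells moved with these results. All 8 macrophage markers fell, with a median log2 fold change of -1.79, and their summed level was between 324.2 and 1189 CPM in *Acod1*-/- mice. *Atf3* per 1000 CPM of these markers was 12.3, 5.81, 17.4, 23.6 and 28.04 CPM, below the lowest wild type value of 29.1 CPM. Of 7 adipocyte markers 3 rose, and their sum was between 33880 and 41530 CPM against 19220 to 41040 CPM in wild type mice. Wild type library 1 had the lowest adipocyte sum, the highest macrophage sum, the highest *Atf3* and the lowest *Clybl* and *Auh* of its group. Of 6 epididymis markers 2 rose and none fell, where 9.13% of all genes tested rose. Their sum was between 1.46 and 1054 CPM in *Acod1*-/- mice and between 0.206 and 114.3 CPM in wild type mice. The part of these cell types and of epididymis tissue in the changes by genotype was not tested.

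**Figure D4:**
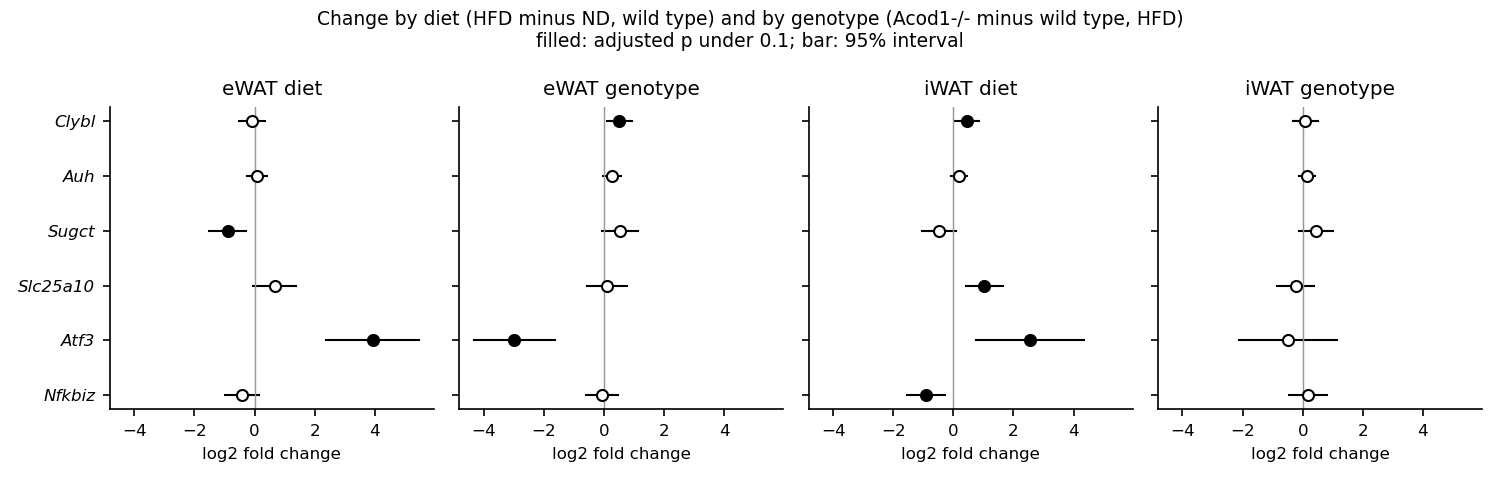
Log2 fold change of 6 members (points) with its 95% interval (bars) by diet and by genotype in each depot, filled where the adjusted p was under 0.1. *Atf3* lies at 3.93 by diet and -2.98 by genotype in eWAT, and no point is filled for genotype in iWAT.

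In iWAT, 4 of the 6 members tested differed by diet. *Atf3*, *Slc25a10* and *Clybl* rose and *Nfkbiz* fell, so 3 of 6 were higher, against 25.9% of the 14801 genes tested, and 1 of 6 lower, against 24.2%. Groups were apart in 3 of 6 members and in 47.1% of genes. The median log2 fold change was 0.31 over the members and 0.00 over all genes.

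*Slc25a10* was at 127.0, 245.9 and 226.4 CPM on ND and at 302.2, 481.6, 459.3, 454.3 and 303.4 CPM on HFD. Every HFD-fed library was above every ND-fed one. The log2 fold change was 1.03 (SE 0.28, 2.04-fold, adjusted p = 0.0139), and it remained called in each of the 11 fits that left out 1 library, with adjusted p between 0.0083 and 0.0509. The genes most like it over the 25 libraries were *Agpat2* (Pearson's r = 0.92), *Bscl2* (0.91) and *Mpdu1* (0.91), and within groups *Agpat2* (0.91), *Fasn* (0.90) and *Slc36a2* (0.89). *Agpat2*, *Bscl2* and *Fasn* serve fat synthesis and storage. Of 7 adipocyte markers 4 rose on HFD in iWAT, and their sum was between 22040 and 27050 CPM on ND and between 38540 and 48670 CPM on HFD. Their part in the rise of *Slc25a10* was not tested.

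*Atf3* was at 3.78, 0.937 and 2.07 CPM on ND and at 26.1, 10.02, 7.88, 16.9 and 4.72 CPM on HFD. The groups were apart, with HFD-fed library 5 nearest to ND. *Atf3* rose by 2.56 on the log2 scale (SE 0.82, 5.91-fold, adjusted p = 0.0278). With the sequencing series as a term it was 1.12 (adjusted p = 0.343). HFD-fed library 5, the only one of its group in series 2 with the ND-fed mice, also had the lowest macrophage marker sum of its group, 392.8 CPM. *Atf3* per 1000 CPM of these markers was 9.23, 1.86 and 5.12 CPM on ND and between 12.01 and 29.9 CPM on HFD. The ratio depends on the markers summed. The largest, *Lyz2*, had a mean of 316.8 CPM on ND and 321.7 CPM on HFD (log2 fold change 0.05), while *Adgre1* (2.18) and *Cd68* (2.08) rose. Without ND-fed library 2, which was the lowest in *Atf3*, the adjusted p was 0.104.

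*Nfkbiz* was at 21.4, 30.9 and 18.1 CPM on ND and at 18.9, 10.4, 11.1, 10.2 and 10.5 CPM on HFD. HFD-fed library 1 lay within the ND range and the other 4 below it. *Nfkbiz* fell, with a log2 fold change of -0.91 (SE 0.29, 1.88-fold lower, adjusted p = 0.0266), and -0.67 (adjusted p = 0.140) without ND-fed library 2, which was the highest in *Nfkbiz* and in B cell markers. All 5 B cell and all 5 T cell markers fell on HFD in iWAT, with median log2 fold changes of -5.28 and -3.93. Their part in the fall of *Nfkbiz* was not tested.

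*Clybl* was at 69.0, 70.6 and 101.3 CPM on ND and at 91.5, 136.8, 107.4, 95.9 and 106.3 CPM on HFD. ND-fed library 3 was within the HFD range and the other 2 below it. The log2 fold change was 0.45 (SE 0.19, 1.37-fold, adjusted p = 0.0745), and a term for the sequencing series ended the call (adjusted p = 0.109), as did 5 of 11 fits that left out 1 library (ND-fed 1 or 2, or HFD-fed 2, 3 or 5, with adjusted p up to 0.246). *Sugct* was at 7.43, 8.02 and 11.2 CPM on ND and at 5.62, 7.001, 7.27, 5.71 and 5.58 CPM on HFD. Its groups were apart, yet its log2 fold change of -0.48 (SE 0.25, adjusted p = 0.148) did not pass. It passed without *Acod1*-/- library 1, the highest in *Sugct*, which enters only the estimate of spread (-0.50, adjusted p = 0.0629), with only the groups compared (-0.50, adjusted p = 0.0588) and with a filter of 1 CPM in every library (-0.53, adjusted p = 0.0960). *Auh* had a log2 fold change of 0.18 with an interval of -0.09 to 0.45.

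Part of leucine catabolism fell in iWAT on HFD, where 25.9% of all genes tested rose and 24.2% fell. Of 8 genes of leucine catabolism 5 fell, led by *Ivd* (log2 fold change -0.97, adjusted p = 0.000343), *Bcat2* (-0.84) and *Mccc1* (-0.57). Of 6 propionate genes 1 rose, *Mmab* (0.41), and of 6 genes of citrate supply 3 fell, among them *Suclg2* (-0.66) and *Cs* (-0.39). Around *Sugct*, *Dhtkd1* fell (-0.73) and *Aass* rose (3.93, adjusted p = 0.0246), of 4 tested. *Aass* was at 0.198 ± 0.303 CPM (SD, n = 3) on ND and at 2.99 ± 1.84 CPM (SD, n = 5) on HFD, and the groups overlapped. It passed the filter only through the HFD-fed groups, so the size of its change is uncertain. Of 3 other carriers 2 rose, *Abcg2* (0.59), a reported exporter of itaconate, and *Slc13a3* (1.35), a plasma membrane dicarboxylate transporter. Without ND-fed library 1, neither carrier was called (adjusted p = 0.107 and 0.186), nor was *Mmab* (adjusted p = 0.111), while *Pccb* fell (-0.42). All 5 endothelial markers rose on HFD in iWAT (median 0.86), with their sum between 413.5 and 541.4 CPM on ND and between 556.5 and 905.6 CPM on HFD, and their part was not tested.

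Of 10 NF-kB subunits and IκB proteins 8 fell in iWAT, with a median log2 fold change of -0.93, led by *Nfkb1* (-0.93, adjusted p = 0.000122), *Rel* (-2.21) and *Nfkbie* (-2.30). *Nfkbiz* fell with them. For this and the following lists, the shares over all genes tested were 25.9% higher and 24.2% lower. Of 7 inducing signals 3 fell, among them *Irf1* (-0.70) and *Tnf* (-2.01). The falls of the B cell and T cell markers given above moved with these genes, and their part was not tested. Of 10 stress response genes 6 rose and none fell, with *Psat1* at 1.24 (adjusted p = 0.000188), *Ddit3* at 1.01 and *Trib3* at 0.80, and of 18 immediate early genes 6 rose and 6 fell, with *Fos* at 2.77 (adjusted p = 0.00207), *Myc* at -1.40 and *Egr3* at -3.30. Of 13 targets of itaconate 5 fell, with *Sting1* at -1.38, *Gsdmd* at -1.07 and *Sdha* at -0.74. Of 5 skeletal muscle markers 4 fell as well (median -3.57), and without ND-fed library 1, which held most of them, none was called while *Sdha* (-0.87, adjusted p = 0.0102) and *Sdhb* (-0.72) fell. Of 9 NRF2 target genes 3 rose, *Gclm* (0.62), *Srxn1* (0.85) and *Osgin1* (1.22), and 2 fell. Of 6 receptors *Sucnr1*, for succinate, rose (0.83) and *Hcar1*, for lactate, fell (-0.93), as *Gpr35* did. *Tnf*, *Gpr35* and the NRF2 target gene *Slc7a11* averaged 4.66, 1.79 and 5.18 CPM on ND. In HFD-fed wild type mice they averaged 1.13, 0.843 and 0.456 CPM. They passed the filter largely through the ND-fed group, so the size of their falls is uncertain. Without ND-fed library 1, 3 immediate early genes and 1 NRF2 target gene fell in place of the 6 and 2 above. Only 5 receptors were then tested, and 1 fell. Of 8 macrophage markers 6 rose, and their summed level was between 405 and 502.5 CPM on ND and between 392.8 and 1043 CPM on HFD.

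**Figure D5:**
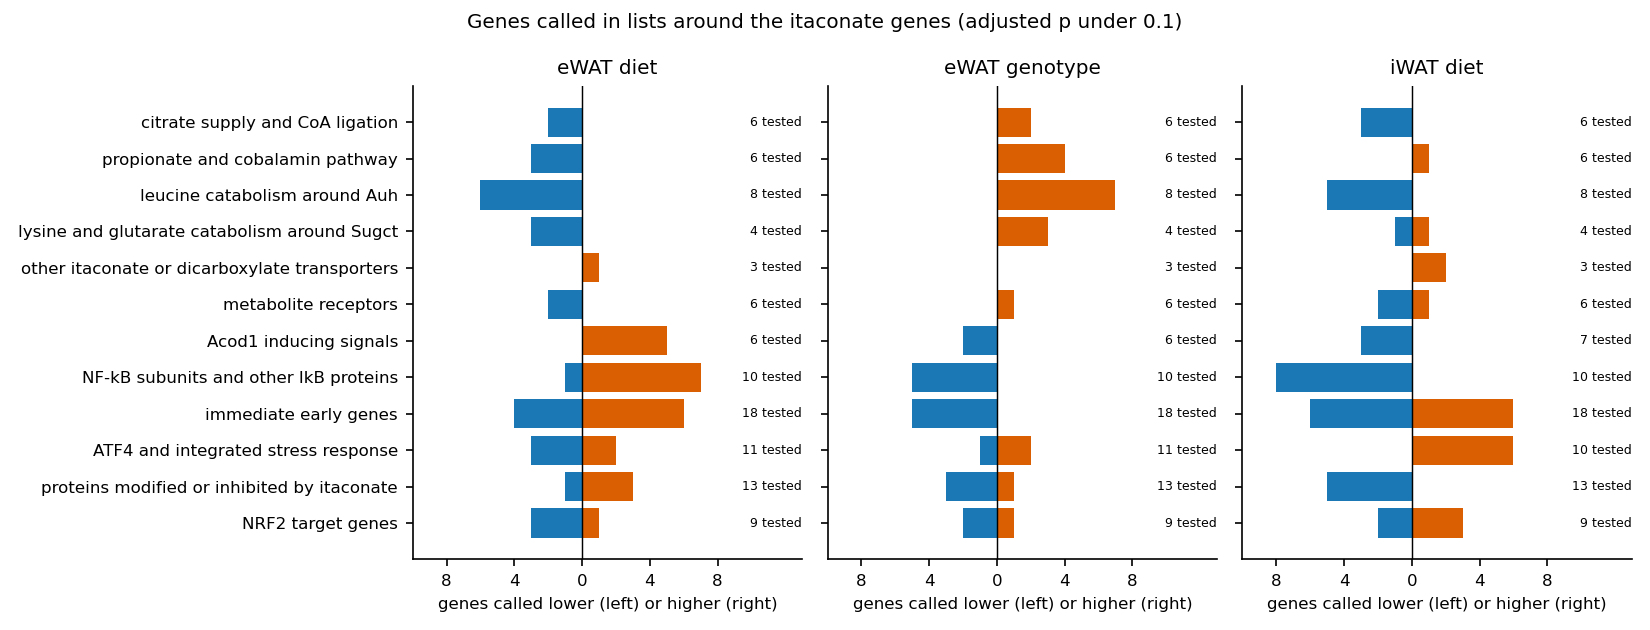
Number of genes called lower (left, blue) or higher (right, orange) at an adjusted p under 0.1 in 12 lists around the itaconate genes, by comparison, with the number tested at the right of each bar. In eWAT, 6 of 8 genes of leucine catabolism were lower by diet and 7 of 8 higher by genotype, and 8 of 10 NF-kB and IκB genes were lower by diet in iWAT. The shares over all genes tested were 26.9%, 9.13% and 24.2% in the same order.

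By genotype in iWAT no member was called, and neither was any gene (0.0% higher and 0.0% lower of 14801, with 2468 at an unadjusted p under 0.05 in edgeR and 1072 called by DESeq2). Groups were apart in 0 of 6 members and in 8.26% of genes. The median log2 fold change was 0.11 over the members and -0.01 over all genes. *Atf3* was at 2.63, 22.2 and 3.82 CPM in *Acod1*-/- mice, so library 2 lay within the wild type range and the other 2 below it. Its log2 fold change was -0.49 with an interval of -2.11 to 1.13 (adjusted p = 0.790), and -2.02 (adjusted p = 0.328) without library 2. Library 2 was the one with the skin and mammary epithelial markers, had the lowest macrophage marker sum of all libraries and held 79.3 CPM of *Atf3* per 1000 CPM of those markers. By their labels, *Acod1*-/- libraries 2 and 3 had 17 and 18 weeks of diet against 16 in wild type mice. Genotype and diet duration cannot be told apart in these libraries. *Lcn2*, the tested IκBζ target, had a group mean of 15.6 ± 25.4 CPM (SD, n = 3) there, with the list's sum at 44.96 CPM in library 2 and at most 1.19 CPM in the other 2.

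The intervals of the remaining members by genotype in iWAT were -0.11 to 1.004 for *Sugct*, -0.13 to 0.40 for *Auh*, -0.31 to 0.49 for *Clybl*, -0.84 to 0.37 for *Slc25a10* and -0.47 to 0.82 for *Nfkbiz*, on the log2 scale. *Sugct* was at 12.7, 6.21 and 7.08 CPM, and library 1 alone stood above all 5 wild type libraries. In all 13 lists around the members no gene passed, although all 8 genes of leucine catabolism had a positive log2 fold change (median 0.43).

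Finally, the depots were compared within each group, with libraries treated as unpaired. *Auh* was lower in eWAT than in iWAT in wild type mice on both diets. On ND it was at 57.0, 52.4, 71.0 and 68.2 CPM in eWAT and at 67.0, 80.6 and 89.8 CPM in iWAT, and the groups overlapped (log2 difference -0.35, SE 0.15, adjusted p = 0.0955). It was the only one of 6 members called there, against 31.7% of 15034 genes, and the call was lost in 12 of 25 fits that left out 1 library, among them those without eWAT library 1 or 2 or iWAT library 2 or 3 (adjusted p up to 0.330). On HFD it was at 50.6, 60.5, 73.7, 66.5 and 76.4 CPM in eWAT and at 79.8, 98.3, 87.9, 93.7 and 79.2 CPM in iWAT, with the groups apart (log2 difference -0.42, SE 0.13, adjusted p = 0.0301, and -0.34 with an adjusted p of 0.103 without eWAT library 1). *Atf3* was higher in eWAT on HFD (log2 difference 2.89, SE 0.68, 7.44-fold, adjusted p = 0.00813), again with the groups apart. All 8 macrophage markers were higher in eWAT there as well (median log2 difference 1.78), and their part was not tested. *Auh* and *Atf3* were the 2 of 6 members called on HFD, against 18.6% of genes, while on ND the groups of *Atf3* were apart but its 2.83-fold difference did not pass (adjusted p = 0.202). In *Acod1*-/- mice, where the labels of iWAT libraries 2 and 3 give a longer diet, none of 6 was called, against 3.81% of genes. The interval of the *Atf3* difference there was -1.19 to 1.94. *Auh* kept its direction there, with a log2 difference of -0.30 and an interval of -0.60 to -0.0032 (edgeR, adjusted p = 0.354).

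The genes most like *Auh* over the 25 libraries were the mitochondrial fatty acid oxidation genes *Acads* (Pearson's r = 0.95), *Etfa* (0.92) and *Cpt2* (0.90), and within groups *Mdh1* (0.93), *mt-Co1* (0.93) and *Acads* (0.92). For *Clybl* they were *Ufd1* (0.89), *Fah* (0.89) and *Ywhab* (0.89), and within groups *Pdap1* (0.92), *Eci1* (0.91) and *C030006K11Rik* (0.89). *Sugct* went most with *Acsm5* (0.87), *Mettl7a1* (0.84) and *Rhbdd2* (0.83), and within groups with *Ascc1* (0.88), *Acsm5* (0.82) and *Polr3gl* (0.79). *Nfkbiz* went most with *Otud5* (0.87), *Ip6k1* (0.87) and *BC037034* (0.86), and within groups with *Pcmtd2* (0.85), *Msantd2* (0.84) and *Ip6k1* (0.84).

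A difference between depots in the size of an effect was tested for each member. By diet none of 6 passed, against 29.0% of genes, and *Atf3* had a log2 difference of 1.39 with an interval of -0.74 to 3.53. By genotype none of 6 passed, against 0.00665% of genes. For *Atf3* the log2 fold change in eWAT minus that in iWAT was -2.52 (SE 0.98, edgeR, unadjusted p = 0.0171, adjusted p = 0.401). It was -3.36 (adjusted p = 0.0991) without *Acod1*-/- eWAT library 5 and -0.98 (adjusted p = 0.884) without *Acod1*-/- iWAT library 2. The effect of genotype on *Atf3* was thus called in eWAT and not in iWAT, but its difference between depots did not pass the test.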

How the data were processed

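RNA-seq of mRNA from eWAT and iWAT was measured in 25 libraries. The authors trimmed adapters (cutadapt), dropped reads under 18 bases or of contaminant origin and mapped what remained with STAR to GRCm38 (mm10 in the submitters' processing notes, which also name bedtools). The deposited counts are whole reads per gene and library, without normalization. The deposited FPKM values followed from these counts and the deposited gene lengths to within 0.0005. The counting program and its use of strand are not given in the sources used here. Gene IDs were matched to GENCODE vM21 and 54723 of 54752 had a symbol. Rows of uncounted reads were left out of library sizes and tests (6.41% to 11.9% of reads on no feature, 1.52% to 2.07% ambiguous).

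Genes that averaged 1 CPM or more over the libraries fitted were tested on counts with edgeR 4.0.16 (quasi-likelihood, TMM) in R 4.3.3, in 1 fit of 3 groups per depot and 1 of all 6 groups for the depots. Values of p were adjusted by Benjamini-Hochberg over all genes tested and called under 0.1, and SE and 95% intervals come from the same fit. CPM in the text use 1 TMM scaling over 25 libraries. *Acod1* and *Oxgr1*, below the filter, were compared by two-sided exact permutation of mean CPM in scipy 1.17.1. Where labels do not say that samples are separate cultures or animals, p-values measure the spread between these libraries, and counting floors cover counting error only. Simulated counts were used to check the scripts.

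The members and the gene lists were chosen with earlier results of these data known. Named are all members, per list and comparison at most the 3 genes with the smallest adjusted p (others, where named, were chosen after their values were seen), and 3 genes by Pearson's r of log2 CPM (prior count 2). Alternatives were no filter, 1 CPM in every library, DESeq2 1.42.0 size factors or Wald test, an adjusted p under 0.05, only the groups compared, the sequencing series as a term, a block for replicate number, and each library left out. A fit of HFD-fed libraries of series 1, and gene list counts by diet without ND-fed eWAT library 2 or ND-fed iWAT library 1, were chosen after seeing the data. Some genes of the lists enter the counts but are not reported here by name.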

Additional observations from a re-analysis of the deposited data

Results flagged for a closer look

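Of the 24 sets of values tested for a library far from the rest of its group (6 members in the 4 groups of 4 or 5 libraries), 3 held one. A chance rate of about 1 in 20 assumes normally distributed values. That was not tested for these CPM, so no excess over chance is read from the count. *Atf3* was at 207.3 CPM in HFD-fed wild type eWAT library 1, against 46.5 to 88.8 CPM in the other 4, in a library that also had the highest macrophage marker sum. *Atf3* was at 9.98 CPM in ND-fed wild type eWAT library 1, against 4.85 to 5.37 CPM in the other 3, and this library had the highest macrophage marker sum of its group, 738.6 CPM. *Nfkbiz* was at 18.9 CPM in HFD-fed wild type iWAT library 1, against 10.2 to 11.1 CPM in the other 4. The part of cell makeup in these values was not tested.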

How the results depend on the processing

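*Atf3* in eWAT kept its direction and stayed called by diet and by genotype in every alternative run. Over the fits that each left out 1 library, its log2 fold change ran from 3.46 to 4.22 by diet and from -3.80 to -2.52 by genotype. *Slc25a10* by diet in iWAT also stayed called in all of them. The cause was not tested for the values that follow, except that an adjusted p under 0.05 and fewer libraries are stricter by construction. Called members in eWAT by genotype were 1 instead of 2 at an adjusted p under 0.05, without the filter, with the series term and with only the groups compared, and 1 to 2 with a library left out. Genes called there were 1717 at an adjusted p under 0.05, and 1709 to 4238 with a library left out. By diet, 5139 genes were called in eWAT and 2 members in iWAT with the series term, and leaving out a library gave 1 to 5 members in iWAT.

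By genotype in iWAT, genes called were 77 without the filter, 91 at 1 CPM in every library, 5 with DESeq2 size factors, 1072 in DESeq2, 4 with the series term, 2157 in series 1 alone and 0 to 2664 with a library left out. Between depots on ND, 0 members were called at an adjusted p under 0.05, without the filter or with the series term, and 0 to 1 (2931 to 5061 genes) with a library left out. In wild type mice on HFD a left-out library gave 1 to 3 members and 1672 to 3005 genes. In *Acod1*-/- mice 305 genes were called at an adjusted p under 0.05, 248 at 1 CPM in every library, 892 in DESeq2, and 165 to 1033 with a library left out. For the depot difference by diet, 0 to 1 members were called with a library left out. For that by genotype it was 0 to 1 members, 1 to 391 genes with a library left out and 96 genes in DESeq2.

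Directions turned for values that were not called. *Nfkbiz* by genotype in eWAT was 0.041 in series 1 alone, a fit chosen after seeing the data, and -0.19 to 0.079 with a library left out. With a library left out, *Clybl* by diet in eWAT ran from -0.24 to 0.028, *Slc25a10* by genotype from -0.17 to 0.26 in eWAT and from -0.36 to 0.025 in iWAT, and *Nfkbiz* by genotype in iWAT from -0.19 to 0.44. *Atf3* ran from -2.02 to 0.0023 by genotype in iWAT, and from -0.44 to 1.94 between depots in *Acod1*-/- mice. *Acod1* by diet in iWAT ran from -0.0783 to 0.00401 CPM and *Oxgr1* by genotype in eWAT from 0 to 0.0335 CPM.

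Libraries share replicate numbers, but same-numbered libraries did not all deviate together (correlations of -0.171 to 0.489 over all pairs of groups). Between the depots of 1 group, where a shared mouse is possible, correlations ran from -0.0929 to 0.489. Some of these libraries were most like their own number and others were not. The number was not taken as a pairing, and whether same-numbered depots share a mouse is not known. With a block for replicate number, 1 member was called in eWAT by genotype, *Clybl* being lost (adjusted p = 0.124), 3 members by diet in iWAT, *Clybl* again being lost (adjusted p = 0.117), and 355 genes between depots in *Acod1*-/- mice. The block changed no other call of a member.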
